A study of Homo sapiens with 6 samples.

Results

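Genes of respiratory complexes II to V were taken by gene symbol from the deposited RNA sequencing tables of human cells labelled LNCaP, a prostate cancer line, and they numbered 70 of the 20263 genes in the tables. The choice covered every symbol beginning with SDHA, SDHB, SDHC, SDHD, UQCR, UQCC, COX4, COX5, COX6, COX7, COX8 or ATP5, together with CYC1, CYCS, NDUFA4, MT-CYB, MT-CO1, MT-CO2, MT-CO3, MT-ATP6 and MT-ATP8. The rule itself uses names and no measured value. By complex this gave 8 genes of complex II, 17 of complex III, cytochrome c itself, 21 of complex IV and 23 of complex V, with 6 of the 70 encoded in mitochondrial DNA and 64 in the nucleus.

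Libraries were made from cells labelled LNCaP that received a vector for overexpression of the long non-coding RNA LINC01518 (3 libraries, overexpression 1 to 3) and from cells with the same label that received the empty vector (3 libraries, empty vector 1 to 3). The sample labels and the series title give LINC01518 as the insert, whereas the design text of the series names MEG3, another long non-coding RNA; neither RNA was analysed here, so the insert was not checked in the data. No drug, age or further allele is given for either group, and the promoter of the vector, the time after its delivery and any separate cultures behind the libraries are not stated in the labels. P-values therefore reflect only how far the libraries of a group differ, and that spread may be technical.

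The respiratory chain passes electrons from nutrients to oxygen across the mitochondrial inner membrane. Complex II feeds electrons from succinate into coenzyme Q, complex III hands them on to the small soluble carrier cytochrome c, complex IV gives them to oxygen, and complex V (ATP synthase) uses the proton gradient built up on the way to make ATP. Most subunits are nuclear gene products imported into the organelle. Cytochrome b of complex III, the core of complex IV and a pair of complex V membrane subunits are made there from mitochondrial DNA.

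Total counts per library lay between 38161544 and 42553688, and a gene with no count could still have up to 3, which is 0.0705 to 0.0786 CPM (counts scaled to library size), for counting error alone. Of the luminal prostate markers by which LNCaP is usually recognised, KLK3, KLK2, TMPRSS2, FOLH1 and TRPM8 had 0 counts in all 6 libraries, whereas KRT8 averaged 1669.8 ± 46.2 CPM in overexpression libraries and 1363 ± 62.1 CPM in empty-vector libraries (SD, n = 3 each), and KRT18 averaged 1078 ± 45.5 CPM with overexpression and 995 ± 76.3 CPM with the empty vector. These 5 zeros go against the label, and the identity of the line could not be checked further, so LNCaP is used here as the label only. The summed level of the 11 luminal markers, nearly all of it from the general epithelial keratins KRT8 and KRT18, was 2695 to 2853 CPM in overexpression libraries and 2298 to 2543 CPM in empty-vector libraries, with KRT8 the only one that rose (log2 fold change 0.29, edgeR adjusted p = 0.0187). Of 8 fibroblast markers, LUM, PDGFRA and FAP had 0 counts throughout, and the summed level was 153 to 157 CPM in overexpression libraries against 112 to 123 CPM in empty-vector libraries, with COL1A1 (0.47, adjusted p = 0.00452) and PDGFRB (0.31, adjusted p = 0.0471) higher. Basal, endothelial, immune and striated muscle markers summed to at most 8.91 CPM in any library. In bulk RNA, a change in the number of cells of a type and a change in RNA per cell cannot be told apart, and the part of these marker differences in the results below was not tested.

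Respiratory genes differed little between the groups, and most of the differences pointed to higher RNA levels with the LINC01518 vector. Of the 70 genes, 63 had enough counts to be tested, in one edgeR quasi-likelihood fit across 13543 genes with Benjamini-Hochberg adjustment over all of them and a threshold of 0.05. The level in the overexpression libraries was higher for MT-CYB, COX6C, ATP5MC3 and ATP5MF and lower for none, with log2 fold changes (overexpression minus empty vector, in TMM-scaled counts) between 0.22 and 0.32. These 4 genes were 6.35% of the 63 tested members, against 3.57% of all tested genes that were called higher, while the 0 called lower compared with 2.03% of all tested genes. At an unadjusted p under 0.05, 14 members were higher (22.2%, against 12.3% of all tested genes) and 1, CYCS, was lower (1.59%, against 11.4%). DESeq2 called 5 members higher (7.94%, against 6.41% of the 12225 genes it gave an adjusted p) and 1 lower (1.59%, against 4.35%). Limma-voom called the same 4 as edgeR higher (6.35%, against 2.91% of all tested genes) and 0 lower (against 1.69%).

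The median log2 fold change of the 63 members was 0.10, against -0.0035 for all 13543 tested genes, and 50 of the 63 (79.4%) had a positive value, against 49.2% of all tested genes. With scaling by library size only, 45 of the 63 were positive, since SDHB, SDHAF2, UQCC3, ATP5PB and ATP5MK changed sign. The member median was then 0.06 and that of all tested genes -0.04. Over all genes 484 were called higher and 275 lower, a split that became 346 higher and 382 lower with scaling by library size only. All 3 overexpression libraries lay above all 3 empty-vector libraries for 13 members (20.6%, against 15.9% of all tested genes) and below them for 2 (3.17%, against 15.5%). The plot of fold changes by complex gives every tested member.

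**Figure D1:**
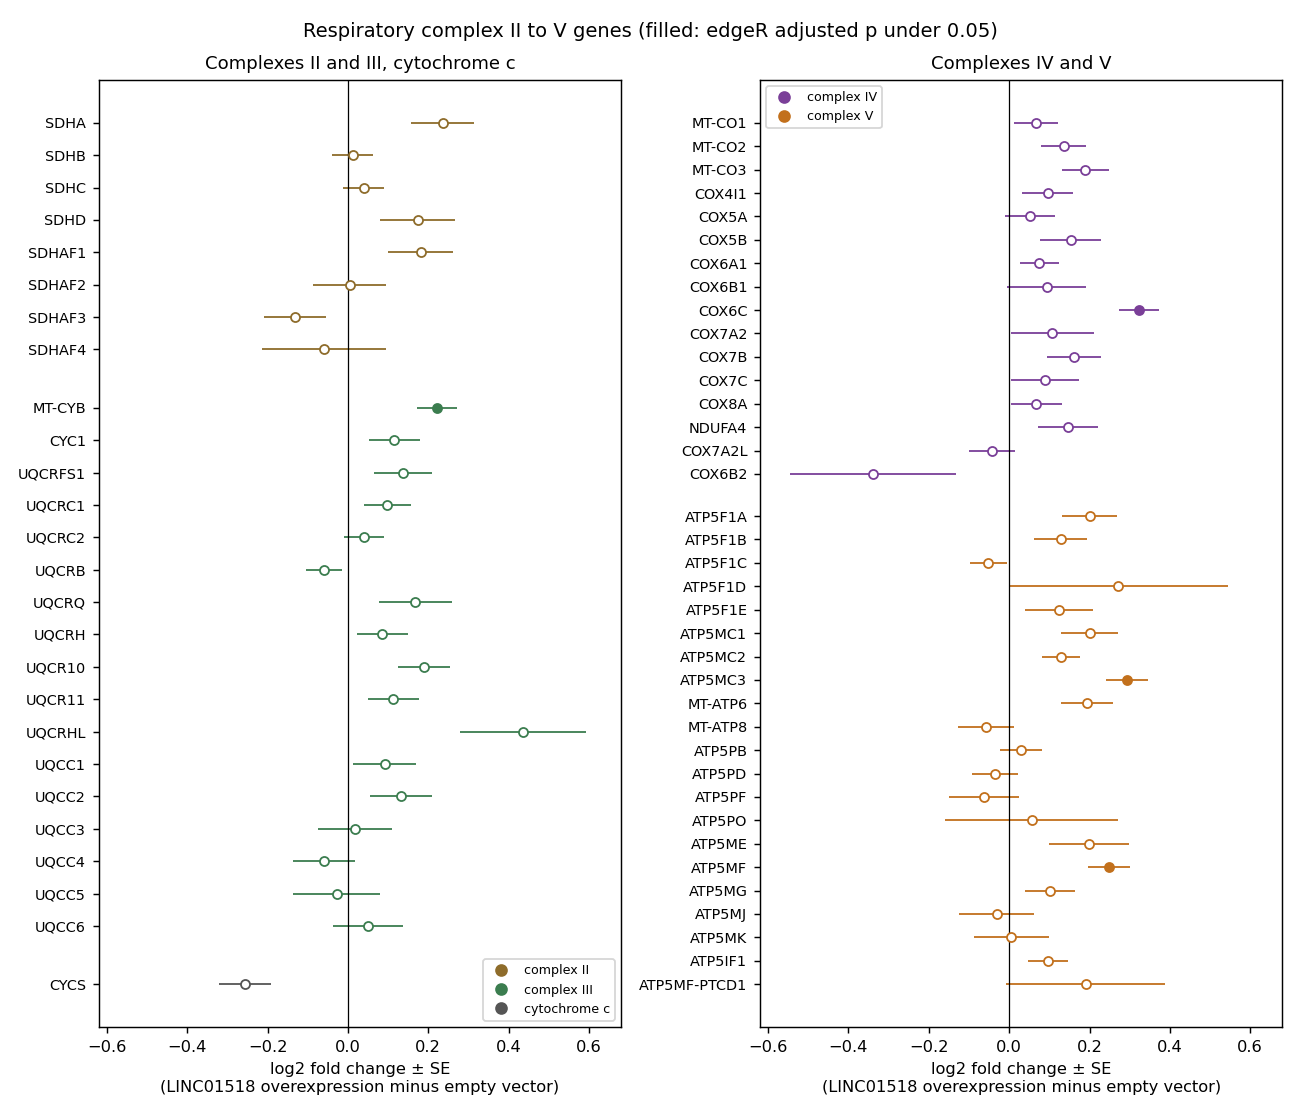
Log2 fold change, overexpression minus empty vector, of the 63 tested respiratory genes, with complexes II and III and cytochrome c on the left and complexes IV and V on the right; points are edgeR estimates, bars are ± 1 SE, and filled points have an adjusted p under 0.05. Of the 63 points 50 lie right of 0, 4 are filled, and CYCS lies left of 0 at -0.26.

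Complex II, the succinate dehydrogenase, had 0 of 8 genes called by edgeR, DESeq2 or limma-voom and 1 higher at an unadjusted p under 0.05, with a median log2 fold change of 0.03. SDHA, the flavin-carrying subunit that oxidises succinate, had 1198, 1137 and 1163 CPM in the overexpression libraries, against 881, 1102 and 989 CPM in the empty-vector libraries. All overexpression values were above all empty-vector values, and the empty-vector libraries were widely spread. The log2 fold change of SDHA was 0.24 (SE 0.078, edgeR adjusted p = 0.120). SDHB, the iron-sulfur subunit that takes the electrons from SDHA, had 126, 119 and 127 CPM with overexpression, against 122, 118 and 128 CPM with the empty vector, so its values overlapped fully (log2 fold change 0.01, SE 0.052).

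The membrane anchors SDHC and SDHD, which hold the enzyme in the inner membrane, had log2 fold changes of 0.04 (SE 0.051) and 0.17 (SE 0.093, adjusted p = 0.303). Without empty vector 1 the values were 0.0025 for SDHC, 0.09 for SDHD and 0.16 for SDHA; SDHC was also lower without overexpression 3 (0.02) and higher without overexpression 2 or empty vector 2 (0.06 in both), and SDHD was lower without overexpression 1 (0.11). Among the assembly factors, SDHAF1, which helps SDHB receive its iron-sulfur clusters, had 23.0, 19.6 and 22.2 CPM in overexpression libraries and 18.7, 19.5 and 18.9 CPM in empty-vector libraries. Its groups were just apart (0.18, SE 0.081, adjusted p = 0.223). SDHAF3 was apart in the other direction at -0.13 (SE 0.076, adjusted p = 0.339), and SDHAF2, the factor that helps SDHA bind its flavin, stood at 0.0040 and SDHAF4 at -0.06. The 4 subunits had a median of 0.11 and the 4 assembly factors one of -0.03.

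Measured per length, the 4 subunits of complex II were far from equal. SDHA had a level of 1102 ± 24.1 TPM with overexpression and 968 ± 109.7 TPM with the empty vector (SD, n = 3 each), and SDHB had 208 ± 5.48 TPM with overexpression and 213 ± 7.41 TPM with the empty vector. The ratio of SDHA to SDHB in TPM was 5.29 ± 0.20 in overexpression libraries and 4.56 ± 0.68 in empty-vector libraries. SDHC and SDHD lay lower, at 39.7 and 75.02 TPM over all 6 libraries. The assembled complex holds its subunits in equal numbers, and only RNA was measured here.

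**Figure D2:**
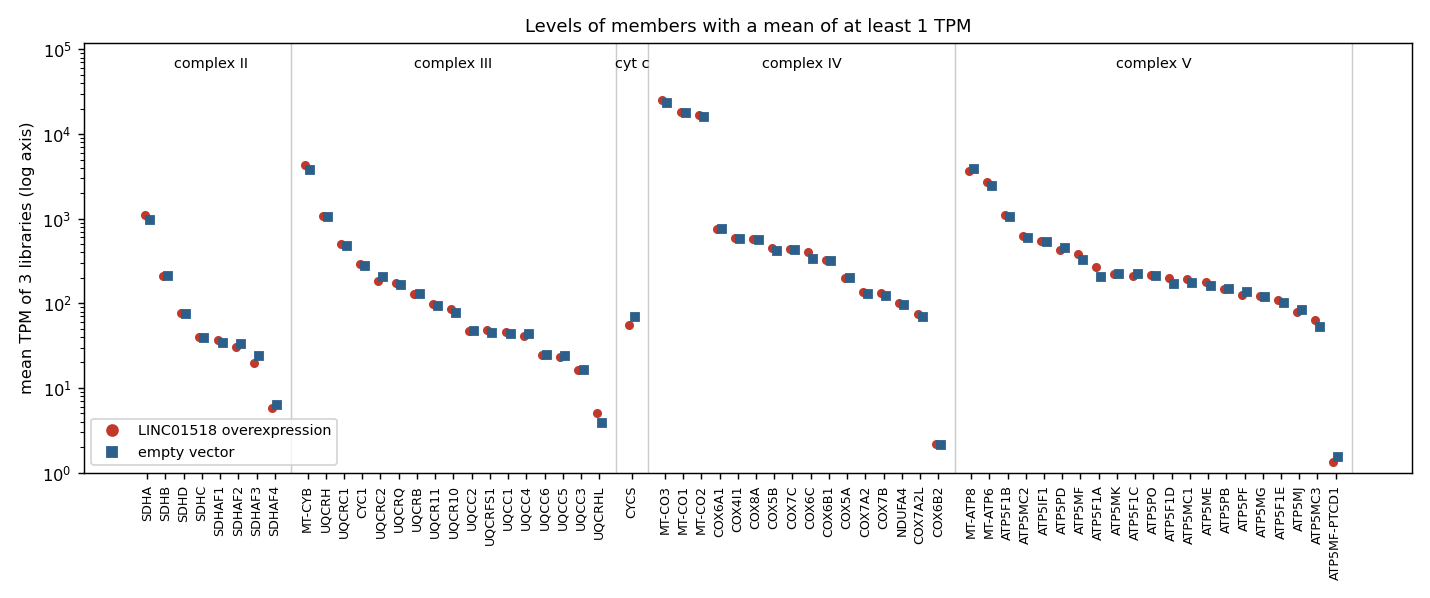
Mean TPM of 3 libraries (log axis) for each respiratory gene with a mean of at least 1 TPM, ordered within each complex by level; circles are overexpression and squares empty vector. The mitochondrially encoded genes lead complexes III, IV and V, with MT-CO3 highest at 24268 TPM over all libraries.

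Complex III had 1 called member, the mitochondrially encoded MT-CYB, and its 17 tested genes had a median log2 fold change of 0.10. MT-CYB encodes cytochrome b, the membrane subunit that holds the coenzyme Q binding sites, and spans bases 14747 to 15887 of chromosome M (GRCh38). It had 2504, 2484 and 2636 CPM in overexpression libraries, against 2199, 2086 and 2254 CPM in empty-vector libraries, with no overlap. The log2 fold change was 0.22, or 1.17-fold (SE 0.049, edgeR adjusted p = 0.0424). This call was lost without any 1 of the 6 libraries (adjusted p 0.0508 to 0.149) and with scaling by library size only (0.0602).

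Of the 16 nuclear genes of complex III, 13 had positive values and none was called, with 2 higher at an unadjusted p under 0.05 and 0 called by DESeq2 or limma-voom. UQCR10, a small subunit, had 34.7, 37.2 and 38.3 CPM with overexpression and 32.5, 31.0 and 33.1 CPM with the empty vector (0.19, SE 0.066, adjusted p = 0.135). Its groups did not overlap, but overexpression 1 and empty vector 3 lay close to each other. UQCRFS1, the Rieske iron-sulfur protein that takes electrons from coenzyme Q, had 0.14 (SE 0.072, adjusted p = 0.298), and CYC1, cytochrome c1, had 0.12 (SE 0.063, adjusted p = 0.313). The core proteins UQCRC1 and UQCRC2 had 0.10 and 0.04, and the small subunit UQCRB was the only negative structural subunit at -0.06. The 6 UQCC assembly factors lay between -0.06 and 0.13. UQCC6 (0.05, SE 0.087) overlaps HSP90B1 on the other strand, a far more abundant RNA that fell by 0.42 on the log2 scale (adjusted p = 0.00292), and without a stated strand setting its count may include reads of that gene.

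The hinge protein that links cytochrome c1 to cytochrome c is encoded by UQCRH, and UQCRHL is a copy on the same chromosome without introns. UQCRH (chr1:46303631-46316776, plus strand) and UQCRHL (chr1:15807169-15809348, minus strand) share 272 of 276 coding bases (98.6%), with an identical run of up to 157 bases, so that short reads can fall on either. Their coding sequences, from the GENCODE 29 annotation of GRCh38, are shown because the counts of the pair depend on these few positions, and capitals mark the 4 bases that differ:
UQCRH: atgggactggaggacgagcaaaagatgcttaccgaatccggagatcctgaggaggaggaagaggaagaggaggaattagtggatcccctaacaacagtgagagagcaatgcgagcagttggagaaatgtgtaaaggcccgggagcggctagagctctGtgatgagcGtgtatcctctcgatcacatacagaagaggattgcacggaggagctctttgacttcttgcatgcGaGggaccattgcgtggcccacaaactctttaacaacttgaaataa
UQCRHL: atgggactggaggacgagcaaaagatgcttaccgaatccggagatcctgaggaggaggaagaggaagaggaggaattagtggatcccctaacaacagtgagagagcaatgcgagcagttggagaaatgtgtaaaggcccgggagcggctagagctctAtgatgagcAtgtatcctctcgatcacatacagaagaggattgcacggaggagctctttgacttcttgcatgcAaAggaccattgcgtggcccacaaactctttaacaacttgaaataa
UQCRHL had 5.50, 5.67 and 6.09 CPM in overexpression libraries and 3.54, 5.21 and 4.0 CPM in empty-vector libraries, the largest positive log2 fold change of the 63 members (0.44, SE 0.157, adjusted p = 0.147). UQCRH had 333, 325 and 354 CPM with overexpression and 290.5, 331 and 332 CPM with the empty vector (0.09, SE 0.064), so that its groups overlapped. UQCRHL made up 0.468% ± 0.013 of the summed TPM of the pair with overexpression and 0.366% ± 0.057 with the empty vector (SD, n = 3 each). How the counting divided reads between the copies is not given, so the UQCRHL value is uncertain.

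Cytochrome c itself had lower RNA levels with overexpression, unlike most members. CYCS (chr7:25120091-25125361, minus strand) encodes the soluble carrier between complexes III and IV, a protein also known for its release from mitochondria in apoptosis. CYCS had 125, 111 and 109 CPM in overexpression libraries, against 142, 131 and 140.4 CPM in empty-vector libraries. Every overexpression library was below every empty-vector library. The log2 fold change was -0.26, or 0.84-fold (SE 0.064), and the edgeR adjusted p of 0.0597 missed the threshold. CYCS was called lower in 3 of the 13 alternative fits with all 6 libraries. These were DESeq2 (adjusted p = 0.0160), and edgeR with upper-quartile scaling (0.0498) or with scaling by library size only (0.0447). Limma-voom did not call it (adjusted p = 0.0716), nor did any of the 6 edgeR fits without 1 library (0.0535 to 0.178). Its value stayed between -0.32 and -0.22 when any 1 library was left out.

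**Figure D3:**
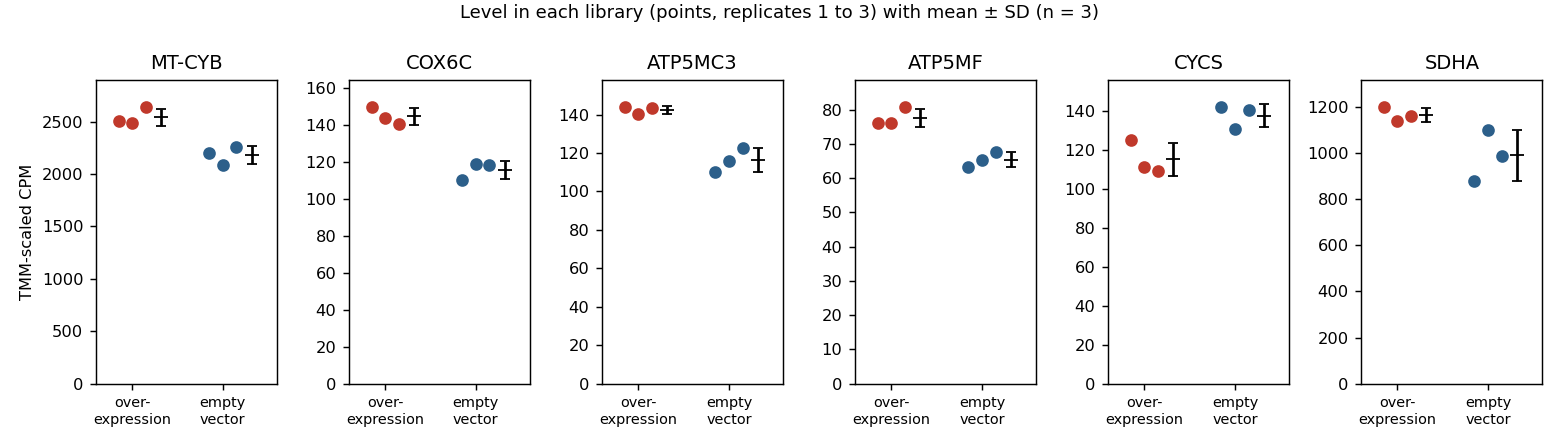
TMM-scaled CPM in each library for the 4 called members, CYCS and SDHA, with overexpression left of empty vector in each panel; points are libraries 1 to 3 and bars the mean ± SD (n = 3). The groups do not overlap in any of the 6 panels, and CYCS is the one panel in which overexpression is the lower group.

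Complex IV, cytochrome c oxidase, had 21 genes in the tables, of which 16 were tested and 1 was called. COX6C, one of its small nuclear subunits, had 149, 144 and 141 CPM in the overexpression libraries, against 110.1, 119 and 118 CPM in the empty-vector libraries. The gap between the groups was wider than the spread within either. The log2 fold change of COX6C was 0.32, or 1.25-fold (SE 0.050, edgeR adjusted p = 0.0148), the smallest p among the 63 members. COX6C was called in 4 of the 6 fits without 1 library and not without overexpression 1 (adjusted p = 0.0594) or overexpression 2 (0.0519). VPS13B, which it overlaps on the other strand, had a log2 fold change of 0.03 and 1006 to 1225 counts per library, and the strand setting of the counting is not given.

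All 11 nuclear structural subunits of complex IV tested had positive log2 fold changes, from 0.05 to 0.32 with a median of 0.10, although COX5A turned negative in the fits on TPM. At an unadjusted p under 0.05 there were 2, COX6C and COX7B. COX7B had 175, 161 and 174 CPM with overexpression and 139, 152 and 164 CPM with the empty vector (0.16, SE 0.067, adjusted p = 0.194). COX5B, the zinc-binding subunit, had 176, 152 and 166 CPM with overexpression and 137, 147 and 161 CPM with the empty vector (0.15, SE 0.076, adjusted p = 0.272). NDUFA4, first described as a complex I subunit and later placed in complex IV, had 118, 108 and 110.4 CPM with overexpression and 90.6, 105 and 108 CPM with the empty vector (0.15, SE 0.074, adjusted p = 0.280). In each of these 3 genes empty vector 1 was the lowest library and empty vector 3 reached into the overexpression range.

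Tissue-type subunits of complex IV were nearly silent. COX4I2, the lung-type and hypoxia-linked form, COX6A2, the heart and muscle form, and COX7B2 had 0 counts in all 6 libraries, COX7A1, another muscle form, had 0 to 10 counts, and the testis form COX8C had 0 to 2. COX4I1, COX6A1 and COX7B thus supplied 100% of the TPM of their families in every library. COX6B1 supplied 99.3% of the TPM of COX6B in both groups, and the testis form COX6B2 averaged 1.58 ± 0.24 CPM with overexpression and 2.0 ± 0.36 CPM with the empty vector (SD, n = 3 each; log2 fold change -0.34, SE 0.206, adjusted p = 0.36). COX7A2 made up 64.9% ± 4.97 of the COX7A family with overexpression and 65.3% ± 2.87 with the empty vector. COX7A2L, a related protein that joins complexes III and IV into supercomplexes, made up 35.0% ± 5.10 with overexpression and 34.7% ± 2.79 with the empty vector, and its log2 fold change was -0.04 (SE 0.057). The choice of isoform in these families differed between the groups by less than the spread between libraries.

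The 3 catalytic core subunits of complex IV come from mitochondrial DNA and had the highest TPM of all members. MT-CO1, which holds the oxygen-reducing centre, had 14992, 14194 and 14510.4 CPM with overexpression, against 14759.7, 13415 and 13558 CPM with the empty vector (0.07, SE 0.055, adjusted p = 0.513). MT-CO2, which receives the electrons from cytochrome c, had 5977, 5679 and 6171 CPM with overexpression, against 5718, 5234 and 5271 CPM with the empty vector (0.14, SE 0.056, adjusted p = 0.190). Both overlapped because empty vector 1 lay within the overexpression range. MT-CO3 had 10247, 9898 and 10938 CPM with overexpression and 9539.8, 8639.9 and 9075 CPM with the empty vector, with no overlap (0.19, SE 0.059, adjusted p = 0.105), and was called by DESeq2.

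The mitochondrially encoded RNAs as a whole took a like share of the counts in every library, 5.0%, 4.84% and 5.16% with overexpression and 5.13%, 4.66% and 4.77% with the empty vector. Within them the 6 genes of complexes III to V had a median log2 fold change of 0.16, with 5 positive and MT-ATP8 negative at -0.06. The 7 mitochondrially encoded complex I genes lay between -0.11 and 0.09, with a median of -0.02 and 0 called by edgeR, DESeq2 or limma-voom and 0 at an unadjusted p under 0.05. MT-ND2 had the smallest p of these 7 (-0.11, SE 0.053, adjusted p = 0.246). The difference between the 6 and the 7 genes was not tested. All except MT-ND6 are cut from one long transcript of the same strand, so their values are not independent of each other.

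**Figure D4:**
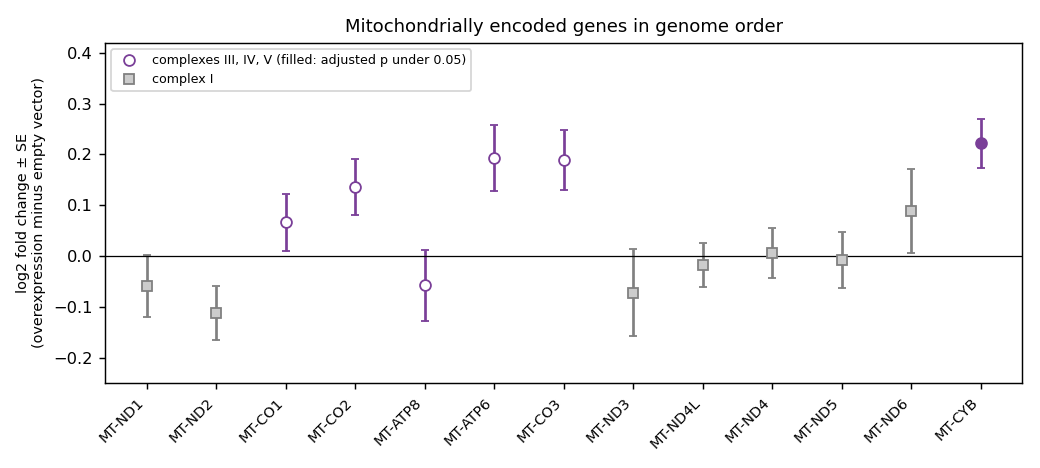
Log2 fold change ± SE, overexpression minus empty vector, of the mitochondrially encoded protein genes in their order along mitochondrial DNA; circles belong to complexes III to V and squares to complex I, and the filled circle has an adjusted p under 0.05. MT-CYB at 0.22 and its next neighbours in the order, MT-ND5 and MT-ND6, differ in height. MT-ATP8 at -0.06 sits beside MT-ATP6 at 0.19, with which it shares bases.

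Complex V had 21 tested genes, a median log2 fold change of 0.12 and 2 called members, both of the membrane part. ATP5MC3 (chr2:175176258-175184607, minus strand) is one of 3 genes that encode the c subunit, whose ring turns as protons pass. It had 144, 140.1 and 143 CPM in overexpression libraries, against 110.1, 116 and 123 CPM in empty-vector libraries. The overexpression values lay close together and clear of every empty-vector value. The log2 fold change was 0.29, or 1.23-fold (SE 0.051, edgeR adjusted p = 0.0217), and the call held in 2 of the 6 fits without 1 library, those without empty vector 1 (adjusted p = 0.0466) and empty vector 3 (0.0242).

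The other c subunit genes pointed the same way. ATP5MC1 had 58.4, 55.7 and 61.6 CPM with overexpression, against 47.5, 50.7 and 54.8 CPM with the empty vector (0.20, SE 0.071, adjusted p = 0.141). ATP5MC2 had 290.0, 310.1 and 310.3 CPM with overexpression, against 275, 271 and 287 CPM with the empty vector (0.13, SE 0.047, adjusted p = 0.152). All 3 genes had groups that did not overlap and edgeR unadjusted p-values under 0.05, and their signs held in all 19 alternative fits. Of all tested genes, 15.9% had all overexpression libraries above all empty-vector libraries, and 12.3% were higher at that unadjusted p. By TPM, the smallest share of the family was that of the gene that was called. By CPM, which takes no account of length, ATP5MC3 lay above ATP5MC1 in every library. In TPM, ATP5MC3 made up 7.12% ± 0.45 of the family with overexpression and 6.54% ± 0.51 with the empty vector (SD, n = 3 each). ATP5MC1 made up 21.9% ± 0.54 with overexpression and 21.6% ± 2.83 with the empty vector, and ATP5MC2 71.0% ± 0.12 with overexpression and 71.9% ± 3.34 with the empty vector.

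The 3 genes encode the same mature c subunit behind different import sequences. Their 75 mature residues were 100% identical, while the presequences shared 35.8% to 46.3% of 67 aligned positions, gaps counted as differences. The coding bases of the mature protein are shown because the same protein is written in different bases. Within this stretch, only the differing bases can tell the 3 RNAs apart. In the 225 bases (GENCODE 29 annotation of GRCh38), 173 are identical in all 3 genes, and capitals mark the 52 positions at which at least 1 gene differs:
ATP5MC1: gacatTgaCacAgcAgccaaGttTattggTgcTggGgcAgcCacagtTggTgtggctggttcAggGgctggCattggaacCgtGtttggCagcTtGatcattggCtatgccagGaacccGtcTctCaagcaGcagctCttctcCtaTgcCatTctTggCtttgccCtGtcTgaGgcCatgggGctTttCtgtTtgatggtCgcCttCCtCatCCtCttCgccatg
ATP5MC2: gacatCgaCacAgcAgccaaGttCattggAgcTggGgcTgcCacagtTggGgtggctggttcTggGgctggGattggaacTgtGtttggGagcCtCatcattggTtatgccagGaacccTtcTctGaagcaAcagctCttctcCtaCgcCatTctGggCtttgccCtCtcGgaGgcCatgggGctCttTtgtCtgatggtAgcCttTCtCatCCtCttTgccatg
ATP5MC3: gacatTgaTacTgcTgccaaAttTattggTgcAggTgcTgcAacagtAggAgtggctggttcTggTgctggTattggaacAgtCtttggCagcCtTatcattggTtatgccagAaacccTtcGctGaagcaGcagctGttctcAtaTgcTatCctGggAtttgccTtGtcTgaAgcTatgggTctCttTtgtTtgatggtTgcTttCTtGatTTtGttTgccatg
ATP5MC1 and ATP5MC2 share 88.9% of these bases and ATP5MC3 shares 81.3% with either.

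ATP5MF (chr7:99448475-99466331, minus strand) encodes the small membrane subunit f. It had 76.2, 76.1 and 80.7 CPM in overexpression libraries, against 63.3, 65.3 and 67.6 CPM in empty-vector libraries, again without overlap. The log2 fold change was 0.25, or 1.19-fold (SE 0.052, edgeR adjusted p = 0.0375), and it was not called in any of the 6 fits without 1 library (adjusted p 0.0545 to 0.138), with library size only (0.0526) or with a correction for gene length (0.17, adjusted p = 0.0851). Its locus also holds PTCD1 on the same strand (log2 fold change -0.08) and CPSF4 on the other (-0.02), and the readthrough gene ATP5MF-PTCD1 had 48 to 65 counts per library (0.19, SE 0.197, adjusted p = 0.602). The remaining membrane subunits ATP5ME, ATP5MG, ATP5MJ and ATP5MK had 0.20, 0.10, -0.03 and 0.01, none called.

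MT-ATP6 encodes subunit a, the proton channel beside the c ring, and MT-ATP8 a small neighbour needed for its assembly. MT-ATP6 had 896, 924 and 1059 CPM with overexpression, against 849, 828 and 842 CPM with the empty vector (0.19, SE 0.065, adjusted p = 0.128). MT-ATP8 had 389, 387 and 384 CPM with overexpression, against 401, 363 and 444 CPM with the empty vector (-0.06, SE 0.070, adjusted p = 0.661). The first pair of groups did not overlap, and the second did. The count of MT-ATP8 per count of MT-ATP6 was 0.435, 0.418 and 0.363 in overexpression libraries. In empty-vector libraries it was 0.472, 0.439 and 0.527, without overlap between the groups. How the counting divided reads between these genes is not given, so the ratio was not read as a difference between separate RNAs. The open reading frames share 46 bases at positions 8527 to 8572 of chromosome M, where a read cannot be given to 1 of the genes, out of 207 annotated bases for MT-ATP8 and 681 for MT-ATP6. The shared stretch is shown for that reason, with the first codon of MT-ATP6 in capitals:
MT-ATP8 and MT-ATP6 overlap: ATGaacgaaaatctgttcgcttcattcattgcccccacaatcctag

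In the catalytic F1 head, 4 of 5 genes were positive and 0 were called by edgeR, DESeq2 or limma-voom, with 1 higher at an unadjusted p under 0.05. ATP5F1A, the alpha subunit, had 244, 239 and 215 CPM with overexpression, against 187, 209 and 212 CPM with the empty vector (0.20, SE 0.068, adjusted p = 0.131), with the groups just apart. ATP5F1B, the catalytic beta subunit and the most abundant nuclear member of complex V per length at 1075 TPM, had 0.13 (SE 0.066, adjusted p = 0.286). ATP5F1D of the central stalk had 104, 59.7 and 97.6 CPM with overexpression and 58.1, 69.4 and 89.3 CPM with the empty vector, the largest SE of any member (0.27, SE 0.274). The peripheral stalk genes ATP5PB, ATP5PD, ATP5PF and ATP5PO had a median of -0.0026, with 2 positive and 2 negative. ATP5IF1, which blocks the enzyme when it runs backwards, had 155, 147 and 153 CPM with overexpression and 148, 136 and 143 CPM with the empty vector (0.10, SE 0.049, adjusted p = 0.279). The copies ATP5F1EP2 and ATP5MGL had 0 to 2 counts and were not tested.

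Levels per length gave other values than counts in a few members. ATP5F1A had 259, 337 and 211 TPM with overexpression and 195, 216 and 199.6 TPM with the empty vector, so that overexpression 2 stood highest by TPM but not by CPM. In the fits on log2(TPM + 1) no member was called, the median of the members was 0.06 and 44 of 63 were positive. With the filter, the median of all genes was -0.04. The member median minus that of all genes was 0.10 in this filtered fit and in the main fit, and 0.08 without the filter. COX6C (0.30, limma-trend adjusted p = 0.0686) and ATP5MC3 (0.25, limma-trend adjusted p = 0.0709) kept their direction in the filtered fit.

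The libraries of a group did not move as 1 block over these genes. The median deviation of the 63 members from their own mean over 6 libraries, in log2 units, was 0.08, 0.01 and 0.07 in overexpression 1 to 3 and -0.11, -0.05 and 0.03 in empty vector 1 to 3, so empty vector 3 stood above overexpression 2. Empty vector 1 was the lowest library for 38 of the 63 members, whereas it was the lowest for 21.8% of all tested genes. For 22 members (34.9%) the 3 highest libraries were overexpression 1, overexpression 3 and empty vector 3, as they were for 5.81% of all tested genes, a combination singled out after its values were seen. The nuclear members together took 0.842%, 0.794% and 0.817% of the counts with overexpression and 0.723%, 0.784% and 0.809% with the empty vector. Without empty vector 1 the median log2 fold change of the members was 0.06 and 2 members were called, and without empty vector 3 it was 0.14, again with 2 called.

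**Figure D5:**
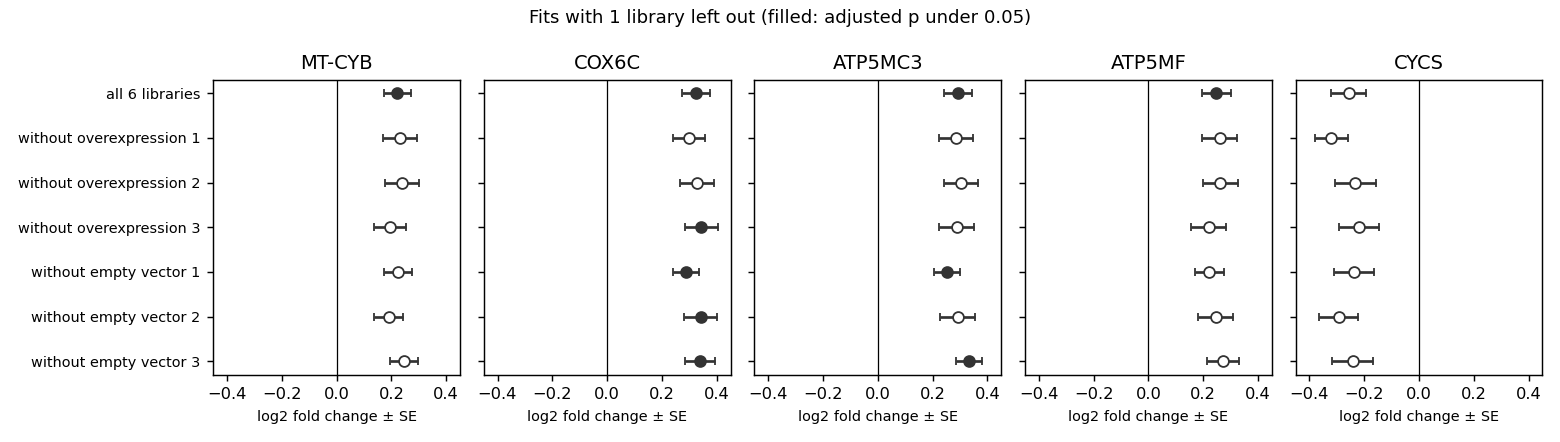
Log2 fold change ± SE, overexpression minus empty vector, of the 4 called members and CYCS with all 6 libraries (top) and with 1 library left out (rows below); filled points have an adjusted p under 0.05. Every point keeps its side of 0, COX6C stays filled in 4 of the 6 lower rows, ATP5MC3 in 2, and MT-CYB and ATP5MF in 0.

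Genes that act around the complexes were read from lists of known function, with the same fit. Over all tested genes, edgeR called 3.57% higher and 2.03% lower. At an unadjusted p under 0.05, 12.3% were higher and 11.4% lower. DESeq2 called 6.41% higher and 4.35% lower of the genes it gave an adjusted p. The lists are short, and their counts were not tested against these shares. Of 30 assembly and maturation factors of complex IV, 0 were called by edgeR or limma-voom, with 1 higher and 1 lower at an unadjusted p under 0.05, and the list median was 0.01. COX17, the copper chaperone of the enzyme, averaged 20.2 ± 1.0 CPM with overexpression and 16.7 ± 0.17 CPM with the empty vector (0.27, adjusted p = 0.0667) and was called by DESeq2. Of 10 assembly factors of complexes III and V, 0 were called by edgeR or limma-voom, with 3 lower at an unadjusted p under 0.05 and a median of -0.11. BCS1L, which inserts the Rieske protein UQCRFS1 into complex III, averaged 15.3 ± 1.44 CPM with overexpression and 19.4 ± 1.04 CPM with the empty vector (-0.34, adjusted p = 0.0718) and was called lower by DESeq2.

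The mitochondrial carriers that bring ADP and phosphate to complex V had 4 tested genes, all positive, with a median of 0.14 and 0 called by edgeR or limma-voom and 2 at an unadjusted p under 0.05. SLC25A4, an ADP/ATP translocator, averaged 41.8 ± 4.07 CPM with overexpression and 32.05 ± 2.38 CPM with the empty vector (0.38, adjusted p = 0.0504) and was called by DESeq2. Of 15 enzymes of the tricarboxylic acid cycle, which makes the succinate used by complex II, 1 was called: OGDH rose to 416 ± 17.2 CPM with overexpression, against 355 ± 16.4 CPM with the empty vector (0.23, adjusted p = 0.0460). At an unadjusted p under 0.05 there were 4 higher and 1 lower, DESeq2 called OGDH and IDH3B higher, and limma-voom called 0. Of all tested genes, edgeR called 3.57% higher, and 12.3% were higher and 11.4% lower at that unadjusted p. Coenzyme Q synthesis had 0 of 13 genes called by edgeR, DESeq2 or limma-voom, with 1 higher and 2 lower at an unadjusted p under 0.05, and its smallest p was that of PDSS1 (-0.29, adjusted p = 0.0752). The 14 regulators of respiratory gene expression had 0 called by any of the 3 tools, with 2 higher and 3 lower at an unadjusted p under 0.05. Of these 14 regulators, 11 were negative (median -0.14) and 21.4% positive, against 49.2% positive among all tested genes. Among them PPARGC1B, a coactivator of mitochondrial gene expression, had the smallest p (-0.25, adjusted p = 0.123). The 5 tested genes linked to hypoxic remodelling had a median of -0.02 with 0 called by the 3 tools and 0 at an unadjusted p under 0.05, HIGD2A having the smallest p (0.12, adjusted p = 0.326).

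Nuclear respiratory genes are known for promoters that bind the factors NRF1, GABPA (of the ETS family) and YY1, and sequence from 250 bases before to 50 bases after the gene start was read for 45 of the 63 tested members from RefSeq (GRCh38.p14). The letters searched on both strands were GCGCATGC for the NRF1 core, CCGGAAG for ETS and AAGATGGCG for YY1, of which the last 3 letters of CCGGAAG can overlap the first 3 of AAGATGGCG. The NRF1 core was in 11 of the 45 (24.4%) and in 6.25% of 10702 tested genes with a promoter, ETS in 18 (40.0%) and in 21.8%, and YY1 in 4 (8.89%) and in 4.53%. At least 1 of the 3 was in 23 member promoters (51.1%) and in 29.5% of all. The 45 did not include the called members MT-CYB, COX6C, ATP5MC3 and ATP5MF. A match is a description of these letters and not a binding site. The promoters of CYCS (chr7:25125211-25125510, minus strand), which held the NRF1 letters only, and of SDHB (chr1:17053983-17054282, minus strand), which held all 3, are shown because one belongs to the member with the smallest p among those that were lower and the other to a member whose level was alike in both groups; capitals mark the matches:
CYCS promoter: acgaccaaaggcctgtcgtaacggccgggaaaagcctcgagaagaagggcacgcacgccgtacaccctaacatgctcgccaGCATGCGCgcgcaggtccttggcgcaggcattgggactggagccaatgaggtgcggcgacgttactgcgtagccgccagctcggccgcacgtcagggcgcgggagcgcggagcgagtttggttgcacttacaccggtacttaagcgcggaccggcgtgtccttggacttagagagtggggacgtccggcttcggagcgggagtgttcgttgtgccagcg
SDHB promoter: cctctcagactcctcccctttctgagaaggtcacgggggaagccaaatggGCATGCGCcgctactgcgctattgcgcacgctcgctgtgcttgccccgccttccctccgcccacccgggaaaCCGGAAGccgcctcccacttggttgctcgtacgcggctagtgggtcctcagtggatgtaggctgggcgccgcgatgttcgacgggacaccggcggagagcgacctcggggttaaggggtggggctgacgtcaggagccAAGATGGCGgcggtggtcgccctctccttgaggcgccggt
ATP5MC2 and COX5B also held the NRF1 letters and had 0.13 and 0.15, so members with that match had fold changes of both signs.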

How the data were processed

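Per the labels, total RNA of cells given as LNCaP was sequenced in 6 libraries, 3 with the LINC01518 overexpression vector and 3 with the empty vector. In the submitters' processing notes, the authors used Trimmomatic 0.36, HISAT2, featureCounts of Subread 1.5.1, DESeq and the build GRCh38. The authors deposited whole-number counts per gene, not normalized, and TPM per gene. The annotation release, the strand setting and the tool behind the TPM are not given in the sources that were used, and 0 sample columns were left unmatched.

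Symbols were found for 20148 of 20263 gene IDs, and positions and coding sequences were taken from GENCODE 29. Tests were run on the counts in R 4.3.3 with edgeR 4.0.16 (filterByExpr with minimum count 10 and minimum total 15, TMM scaling, robust quasi-likelihood F test with the group as the only term, Benjamini-Hochberg adjustment over 13543 genes, threshold 0.05). The SE was taken as the absolute log2 fold change over the square root of F, and CPM are TMM-scaled. Alternatives used other scalings, filters, DESeq2 1.42.0, limma 3.58.1 (voom on counts, trend on log2 of TPM plus 1 or 0.1), a gene length offset (loess span 0.5), each library left out and a replicate block. Levels between genes were compared in TPM, apart from a remark on the CPM of ATP5MC1 and ATP5MC3.

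The members, gene lists and tests were chosen with earlier results of these data known. Text names each called member, each mitochondrially encoded member, the 3 smallest p-values and the highest TPM per complex, paralog families, untested members and, per list, called genes or the smallest p; the others appear as further members of a complex or role.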

Additional observations from a re-analysis of the deposited data

How the results depend on the processing

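The 4 member calls were not the same in all fits. They were 4 with RLE scaling, scaling without mitochondrially encoded genes, both count filters and limma-voom, 5 with upper-quartile scaling, 3 with library size only and with the length offset, and 6 with DESeq2. In the fits on log2(TPM + 1), log2(TPM + 0.1) and log2(TPM + 1) with no filter 0 members were called, and the calls over all genes were 268, 243 and 152 in place of 759. Those TPM fits also changed the scaling and the test, so the part of the unit alone was not tested. DESeq2 called 1316 genes. Without 1 library, 0 to 2 members and 193 to 458 genes were called, with 0 members without overexpression 1 or overexpression 2. Fewer libraries enter these fits, and the cause of the lower numbers of calls was not tested. With the replicate block 0 members and 232 genes were called, but the labels do not say whether libraries of the same number are paired. The deviations of same-numbered libraries from their group means correlated at -0.0025, 0.040 and 0.071 over 12449 genes. For libraries of different number the correlations lay between -0.079 and 0.045. Deviations within groups of 3 libraries cannot decide whether there was a pairing. The median member fold change stayed positive in all 19 alternatives, between 0.06 and 0.14 on the log2 scale. Of 1197 member values in the alternatives 64 had the other sign, and 45 of the 63 members never changed sign. At 3 libraries a group and a typical SE of 0.068, most single differences in these genes could not be resolved.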
